A study of Mus musculus with 6 samples.

Results

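The lysosome and V-ATPase genes were the 150 genes, of 55416 in the deposited table, that carried the lysosome pathway annotation of that table (131 genes) or a symbol starting with Atp6v or Atp6ap (28 genes, 19 of them by symbol alone). They were described by role, as 26 subunits and accessory proteins of the V-ATPase, 19 cathepsins and other proteases, 20 glycosidases, 22 sulfatases, lipases and other hydrolases with their activators, 25 membrane proteins and 31 sorting and coat proteins, with 7 genes left without a role. Of the 150 genes, 124 passed the filter on low counts and were tested, and 26 were not tested, 11 of which had no count in any library. The rule itself uses no measured value.

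Lysosomes are acidic compartments in which proteins, glycans and lipids are broken down. The V-ATPase pumps protons into them, with a cytosolic V1 sector that hydrolyses ATP and a membrane V0 sector that carries the protons. Most lysosomal hydrolases receive a mannose 6-phosphate tag in the Golgi, which receptors and clathrin adaptors use to send them to endosomes. In cartilage, lysosomal proteases and glycosidases are known for turning over collagen and the glycosaminoglycan chains of aggrecan.

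The measurements were RNA-seq of primary mouse chondrocytes from a study of the glycolytic enzyme PKM2. The siNC group (n = 3 libraries, genotype label WT) received a control siRNA, and the siPkm2 group (n = 3 libraries) received an siRNA against Pkm2. The labels give neonatal knee joints as the source of all 6, while the general methods of the study describe adult mice. All 3 titles of the siPkm2 group name siPKM2, whereas the genotype labels name PKM2, PKM3 and PKM4 for replicates 1, 2 and 3. The methods say in general that experiments were repeated independently, and the labels tie no library to an animal, so p-values measure the spread between these libraries, part of which may be technical. The counts do not separate the PKM1 and PKM2 transcripts.

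Total counts ran from 22316996 to 25691029 per library. Pkm, the targeted gene, stood at 1654, 2209 and 1293 TPM, a level scaled for transcript length and library size, in siNC and at 245, 428 and 231 TPM in siPkm2, so the groups did not overlap. Libraries with the same replicate number resembled each other, and replicate 2 of both groups stood apart from replicates 1 and 3. Summed over 8 chondrocyte markers, TPM was 3752 in siNC replicate 2 and 5041 in siPkm2 replicate 2 against 13394 to 16295 in the other 4 libraries. Fewer cells of a type and less RNA per cell cannot be told apart in bulk libraries such as these. Fold changes were therefore computed with and without the replicate number as a block, and in each replicate pair. For many genes below, only the fold change and adjusted p with the block are printed. A gene said to rise or fall with the block was not necessarily called without it. Of 8 interferon-stimulated genes, all were higher in siPkm2 in every pair, with a median log2 difference of 5.06, 0.95 and 3.92 in pairs 1, 2 and 3. Summed over the 8, TPM was 39.8, 1830 and 71.5 in siNC and 1289, 3161 and 898 in siPkm2. In these sums siNC replicate 2 lay above siPkm2 replicates 1 and 3. The part of the 8 genes in the results below was not tested.

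With edgeR's quasi-likelihood test and no block, 0 of the 124 tested members had a Benjamini-Hochberg adjusted p under 0.05, either alone (0.0% of the 15269 genes tested) or together with a fold change over 2 (0.0% of all genes tested). At an unadjusted p under 0.05 the same test gave 37 members higher in siPkm2, where 8.43% of all genes were, and 6 lower, where 9.19% of all genes were. DESeq2's Wald test without a block called 16 members at an adjusted p under 0.05, or 12.9% against 5.38% of all genes, and 6 of them also had a fold change over 2, or 4.84% against 2.79%. With the replicate block, edgeR's test called 62 of the 124, or 50.0% against 23.1% of all genes, and these included all 16 of the DESeq2 calls. Of the 62, 53 rose (42.7% of the tested members against 12.3% of all genes) and 9 fell (7.26% against 10.8%).

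A fold change over 2 as well was reached with the block by 8 members, a share of 6.45% close to the 5.83% of all genes. Of these 8, 7 rose (5.65% against 2.65%) and 1 fell (0.806% against 3.18%), so that most of the shifts in this pathway were under 2-fold. CPM are counts scaled for library size and for a normalization factor of each library (TMM), and not for transcript length. Without any model, the 3 siPkm2 libraries lay above the 3 siNC libraries in CPM for 41 members (33.1% against 11.9% of all genes). They lay below them for 6 (4.84% against 12.2%). In all 3 pairs 71 members were higher (57.3% against 30.6%) and 19 were lower (15.3% against 30.5%). The median log2 fold change of the tested members was 0.33 without the block and 0.37 with it, against -0.02 and -0.01 for all genes. By pair the median was 0.43, 0.19 and 0.32, lowest in pair 2. With pair 2 left out the fit with the block called 83 members (66.9%, against 39.1% of all genes), all 62 among them and with the same sign, and 16 of the 83 also passed a fold of 2 (12.9%, against 10.8% of all genes). With pair 1 or pair 3 left out it called 0 genes of the whole table.

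**Figure D1:**
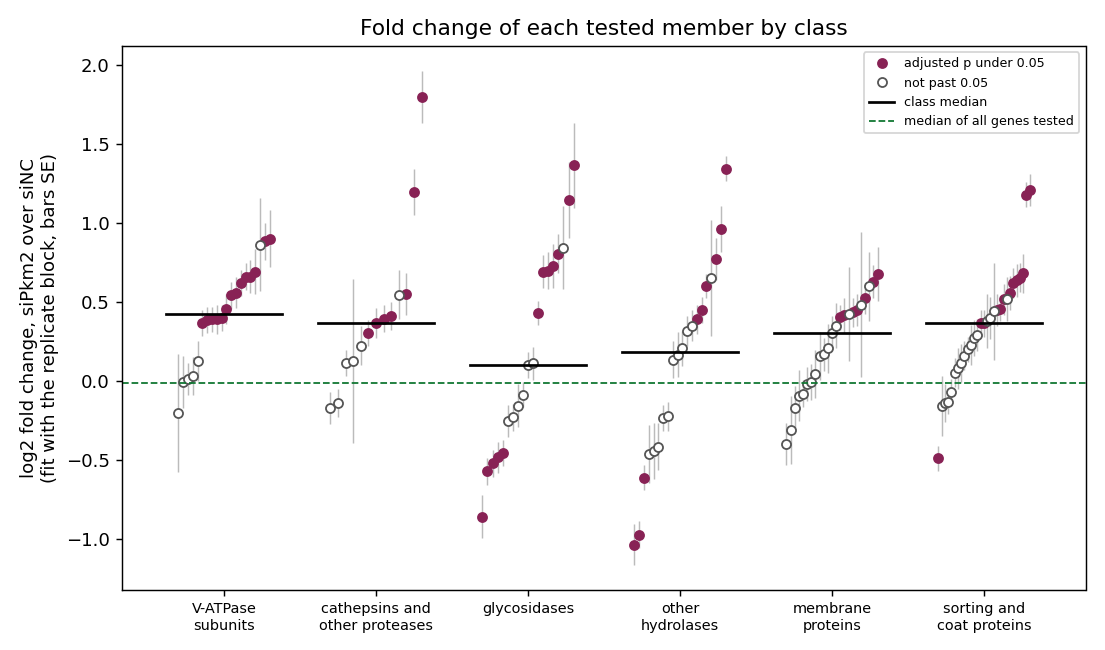
Log2 fold change of siPkm2 over siNC for each of the 124 tested members, by role, from edgeR's fit with the replicate block; points are genes ordered by fold within a class, bars are standard errors, filled points have an adjusted p under 0.05, and black lines are class medians. V-ATPase subunits and proteases have filled points only above 0, whereas the glycosidases and other hydrolases have filled points on both sides.

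A minority of the members held a promoter motif already known from lysosome genes, a larger share than among all genes. TFEB and its relatives, along with other factors, bind the letters CACGTG, and the longer GTCACGTG is the core of the CLEAR element known from lysosome genes. RefSeq promoter windows on GRCm38.p6, from 250 bases before to 50 bases after a gene's start, were matched by symbol to 117 of the 150 members, and motifs were searched on both strands, where every match to the longer one also holds the shorter one. CACGTG was in 26 of the 117 members (22.2%) against 8.09% of the 27025 genes with a window. Among genes also tested for expression it was in 26 of 98 members (26.5%) against 11.5% of 11108 genes. GTCACGTG was in 20 of the 117 (17.1%) against 2.55%, and in 20 of the 98 (20.4%) against 4.56%. The longer motif is known from lysosome genes, so its larger share here is no independent support for a change. A match gives letters in a window and not a site of binding. Among the 98 tested members with a window, the 20 with GTCACGTG had a median log2 fold change of 0.42 without the block, with 10 up and 0 down with it, and the 78 without it had a median of 0.33, with 32 up and 7 down.

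Of the 15 tested V-ATPase genes with a window, 2 held GTCACGTG, of which Atp6v0b rose with the block and Atp6v0d1 did not pass. Their windows are shown because they hold the same letters with unlike values, beside those of Lamp1 and Sumf1, which hold the motif and rose with the block. Each is written 5′ to 3′ along the gene's strand, and capitals mark GTCACGTG or its reverse complement.
Atp6v0b (chr4:117887280-117887579, minus strand): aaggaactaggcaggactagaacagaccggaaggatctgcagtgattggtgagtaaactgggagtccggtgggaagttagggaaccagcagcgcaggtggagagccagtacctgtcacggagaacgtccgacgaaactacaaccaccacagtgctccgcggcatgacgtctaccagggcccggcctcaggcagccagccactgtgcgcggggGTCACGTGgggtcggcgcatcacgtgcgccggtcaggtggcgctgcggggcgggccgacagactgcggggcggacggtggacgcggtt
Atp6v0d1 (chr8:105566015-105566314, minus strand): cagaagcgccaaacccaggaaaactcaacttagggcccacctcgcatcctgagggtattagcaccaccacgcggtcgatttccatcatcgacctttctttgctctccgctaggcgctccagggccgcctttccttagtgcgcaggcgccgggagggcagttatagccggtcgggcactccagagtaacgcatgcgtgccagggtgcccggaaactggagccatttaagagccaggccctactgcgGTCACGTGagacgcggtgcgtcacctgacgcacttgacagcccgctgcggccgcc
Lamp1 (chr8:13158911-13159210, plus strand): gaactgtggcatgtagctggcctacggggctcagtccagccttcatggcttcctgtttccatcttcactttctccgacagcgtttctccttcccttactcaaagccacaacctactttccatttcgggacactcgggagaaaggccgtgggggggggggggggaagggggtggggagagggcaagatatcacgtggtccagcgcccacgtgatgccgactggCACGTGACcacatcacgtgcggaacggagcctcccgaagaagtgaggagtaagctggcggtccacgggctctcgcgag
Sumf1 (chr6:108185534-108185833, minus strand): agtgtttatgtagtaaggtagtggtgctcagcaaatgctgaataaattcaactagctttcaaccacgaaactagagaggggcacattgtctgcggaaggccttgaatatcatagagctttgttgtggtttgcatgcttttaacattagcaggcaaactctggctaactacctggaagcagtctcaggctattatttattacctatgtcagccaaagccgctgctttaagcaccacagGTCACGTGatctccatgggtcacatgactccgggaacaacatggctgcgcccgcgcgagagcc
The motif began 38 bases before the start in Atp6v0b, 5 bases before it in Atp6v0d1, 28 bases before it in Lamp1 and 13 bases before it in Sumf1.

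Of the 20 tested V-ATPase genes, 14 rose and 0 fell with the replicate block, where 12.3% of all genes rose and 10.8% fell. The median log2 fold change of the 20 was 0.43 both without and with the block (0.49, 0.36 and 0.51 in the 3 pairs). Summed over the 26 genes, TPM was 1953, 1996 and 1992 in siNC and 2788, 2439 and 2747 in siPkm2, or 1981 ± 23.5 against 2658 ± 191 (SD, n = 3 each). Every siPkm2 library was above every siNC library, and the distance between the group means was larger than either SD. The V1 sector summed to 755 ± 41.7 and 1009 ± 115 TPM, and the V0 sector to 983 ± 60.5 and 1268 ± 15.1 TPM (SD, n = 3 each), so both sectors were higher in siPkm2. Of the variation among the 6 libraries in log2 CPM, a median of 69.1% per V-ATPase gene lay between the siRNAs and 27.7% between replicate numbers, where the medians over all genes were 24.4% and 56.9%.

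In the V1 sector, Atp6v1e1 (ENSMUSG00000019210), a subunit of the peripheral stalks, had the lowest p. It stood at 119, 121 and 122 TPM in siNC and at 204, 166 and 189 TPM in siPkm2, a difference of 0.67 on the log2 scale (standard error, SE, 0.15, adjusted p = 0.135 without and 0.0133 with the block, edgeR's quasi-likelihood test). The groups did not overlap, and siPkm2 replicate 2 was the lowest of its group. Atp6v1a, the catalytic A subunit, was at 72.6, 78.2 and 77.2 TPM in siNC and at 107, 85.5 and 109 TPM in siPkm2. Atp6v1b2, its partner subunit B, was at 47.6, 54.7 and 50.6 TPM against 85.2, 58.9 and 82.4 TPM. In both genes every siPkm2 library was above the siNC libraries, and both rose with the block (log2 fold changes of 0.46 and 0.69, adjusted p = 0.028 and 0.0268, same edgeR test). The remaining V1 genes that rose with the block were Atp6v1c1, Atp6v1d, Atp6v1f and Atp6v1g1, at log2 fold changes of 0.38, 0.62, 0.40 and 0.37. Atp6v1h, which encodes the regulatory H subunit, had a log2 fold change of 0.13 with the block and went the other way in pair 2 (0.34, -0.20 and 0.25 in the 3 pairs, adjusted p = 0.478, same edgeR test).

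**Figure D2:**
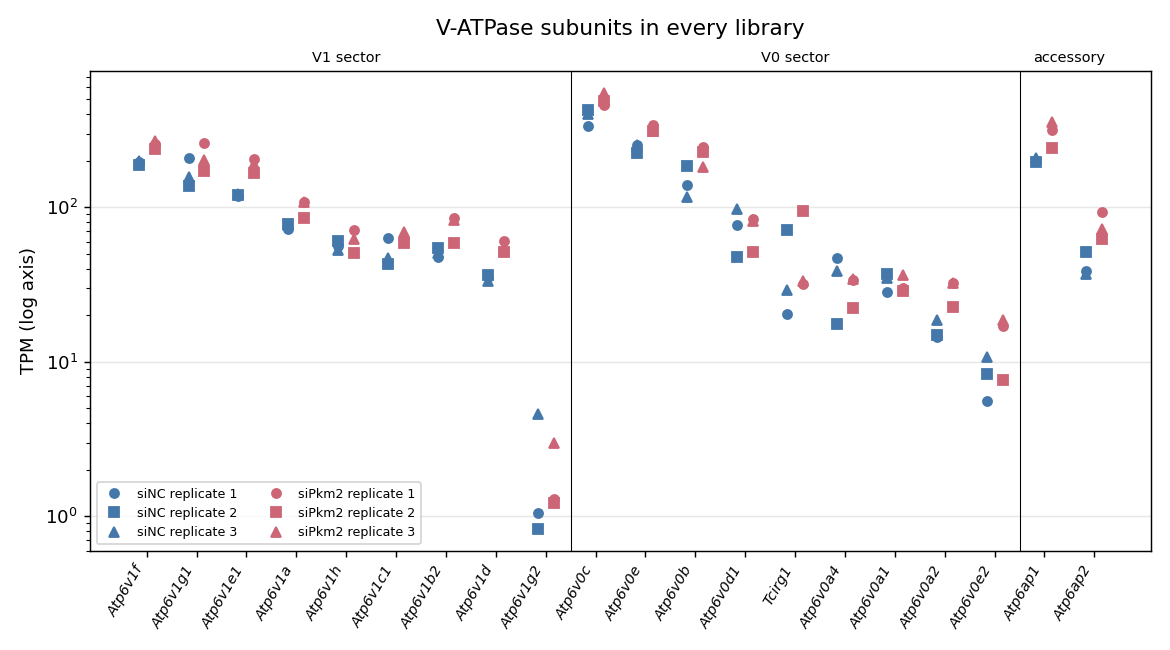
TPM of the 20 tested V-ATPase genes in each of the 6 libraries on a log axis, by sector and in order of their siNC mean; blue symbols are siNC and red symbols siPkm2, and the symbol shape gives the replicate number. For Atp6v1e1 the 3 siPkm2 libraries sit at 166 to 204 TPM, above the siNC libraries at 119 to 122 TPM, whereas for Atp6v0d1 the groups overlap.

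In the V0 sector Atp6v0c, the proteolipid that forms most of the proton-carrying ring, was the most abundant V-ATPase gene, at 333, 428 and 404 TPM in siNC and 459, 486 and 549 TPM in siPkm2. Its groups did not overlap, and it rose with the block by 0.39 on the log2 scale (adjusted p = 0.0362, edgeR's quasi-likelihood test). Atp6v0e, a small membrane subunit, rose by the same 0.39, from 251, 223 and 252 TPM to 339, 309 and 312 TPM. Reads of Atp6v0c could be shared with its pseudogenes, of which Atp6v0c-ps2 was listed at 0 to 0.87 TPM and Atp6v0c-ps1 at 0 in all 6 libraries. Atp6v0b (ENSMUSG00000033379), another ring subunit, was at 139, 184 and 117 TPM in siNC and at 245, 228 and 183 TPM in siPkm2, where siNC replicate 2 lay just above siPkm2 replicate 3 in TPM though not in CPM. It rose by 0.66 on the log2 scale with the block (adjusted p = 0.0176, same edgeR test). Atp6v0d1 (ENSMUSG00000013160), the subunit that links the ring to the central stalk, was at 76.3, 47.5 and 98.0 TPM in siNC and 83.8, 51.0 and 81.3 TPM in siPkm2. Its groups overlapped, with replicate 2 lowest in each, and its log2 fold change was -0.01 without and 0.02 with the block (adjusted p = 0.99 and 0.92, same edgeR test).

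Subunit a, the V0 subunit through which protons pass, is encoded by 4 genes whose products differ in location in the cell. Atp6v0a2 (ENSMUSG00000038023), whose product is known from the Golgi and endosomes, was at 14.5, 14.8 and 18.6 TPM in siNC and at 32.2, 22.6 and 32.1 TPM in siPkm2. The groups did not overlap, and its log2 fold change was 0.90 (SE 0.21, adjusted p = 0.136 without and 0.0133 with the block, edgeR's quasi-likelihood test). Tcirg1 (ENSMUSG00000001750), which encodes the a3 isoform known from lysosomes and from the osteoclast border, was at 20.4, 71.0 and 29.1 TPM in siNC and 31.8, 94.8 and 33.3 TPM in siPkm2. Its replicate 2 was the highest of each group, the groups overlapped, and it rose only with the block (log2 fold changes of 0.49 without and 0.56 with it, adjusted p = 0.718 and 0.0207, same edgeR test). Atp6v0a1 was at 28.2, 36.9 and 34.9 TPM against 30.2, 28.7 and 36.6 TPM, and Atp6v0a4, known from kidney and inner ear, at 46.9, 17.5 and 38.5 TPM against 34.0, 22.4 and 34.2 TPM. The groups overlapped for both, and neither passed with the block (adjusted p = 0.866 and 0.982, same edgeR test).

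The shares of the 4 genes in the summed TPM of subunit a moved with both the siRNA and the replicate number. Atp6v0a2 held 13.2%, 10.5% and 15.3% in siNC and 25.1%, 13.4% and 23.6% in siPkm2, or 13.0% ± 2.39 against 20.7% ± 6.35 (SD, n = 3 each). It was larger in siPkm2 in every pair, although the groups overlapped and the exact two-sided permutation test gave p = 0.2, where 0.1 is the smallest that 3 libraries against 3 allow. Tcirg1 held 50.6% and 56.2% in replicate 2 of siNC and siPkm2 and 18.5% to 24.8% in the other 4 libraries. The remaining subunits with several genes each rested on 1 of them in all libraries: Atp6v1b2, Atp6v1c1, Atp6v1e1, Atp6v1g1, Atp6v0d1 and Atp6v0e each held at least 94.4% of their subunit's TPM. Of the minor isoforms, Atp6v0e2 was at 5.59, 8.33 and 10.7 TPM in siNC and 17.1, 7.64 and 18.6 TPM in siPkm2 (log2 fold change 0.86 with the block, adjusted p = 0.0876, edgeR's quasi-likelihood test), and Atp6v1g2 at 0.83 to 4.62 TPM in siNC and 1.21 to 2.96 TPM in siPkm2. Atp6v1b1, Atp6v1c2, Atp6v1e2, Atp6v1g3, Atp6v0d2 and Atp6ap1l were at 0.29 TPM or less in every library and were not tested.

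**Figure D3:**
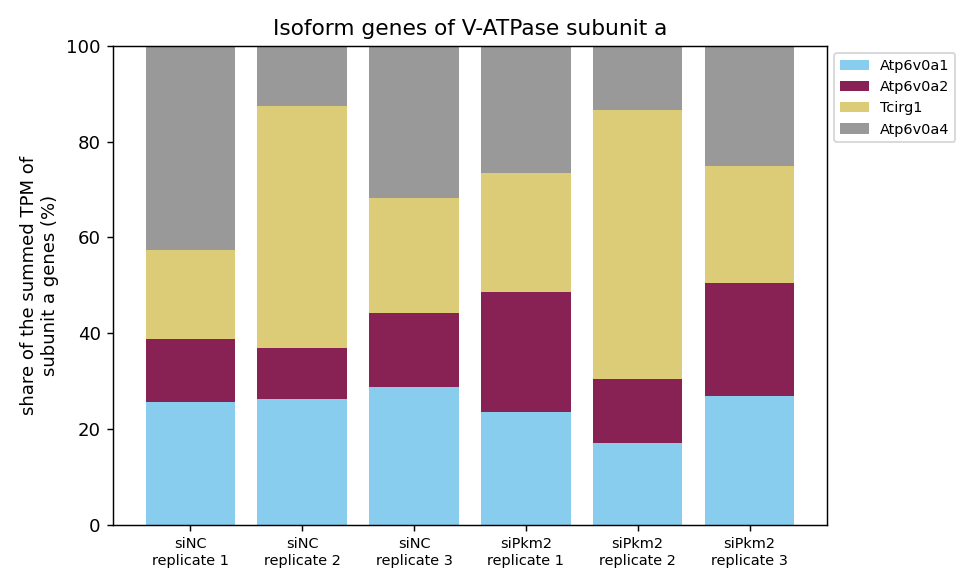
Share of each of the 4 subunit a genes in their summed TPM, as stacked bars for the 6 libraries that each reach 100%. Atp6v0a2 takes 25.1% and 23.6% in siPkm2 replicates 1 and 3 against 13.2% and 15.3% in siNC replicates 1 and 3, and Tcirg1 takes 50.6% and 56.2% in replicate 2 of siNC and siPkm2.

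Both tested accessory proteins rose with the block. Atp6ap2 (ENSMUSG00000031007), the prorenin receptor, was at 38.5, 51.1 and 36.9 TPM in siNC and 93.1, 62.2 and 71.9 TPM in siPkm2, a log2 fold change of 0.92 (SE 0.22, adjusted p = 0.137 without and 0.0265 with the block, edgeR's quasi-likelihood test). Atp6ap1, a V0 accessory protein also called Ac45, was at 199, 195 and 207 TPM in siNC and 316, 243 and 358 TPM in siPkm2. Neither gene's groups overlapped, and siPkm2 replicate 2 was the lowest of its group in both. Of 10 tested genes for the assembly of the V-ATPase or its control, 3 rose and 0 fell with the block, where 12.3% of all genes rose and 10.8% fell. The 3 were Vma21, Tmem199 and Wdr7, at log2 fold changes of 0.59, 0.50 and 0.38. The other 7, Ccdc115, Rogdi, Dmxl1, Dmxl2, Oxr1, Ncoa7 and Meak7, did not pass. The median of the 10 was 0.12 with the block.

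Among the cathepsins and other proteases, 7 of 13 tested genes rose and 0 fell with the block, where 12.3% of all genes rose and 10.8% fell. The median log2 fold change of the 13 was 0.35 without and 0.37 with the block. Ctsc (ENSMUSG00000030560), the dipeptidyl peptidase that activates serine proteases of immune cells, was low, at 4.14, 4.15 and 2.44 TPM in siNC and 17.8, 10.8 and 8.27 TPM in siPkm2. It had the largest log2 fold change of the tested members without the block, at 1.81 (SE 0.40, adjusted p = 0.132 without and 0.0109 with the block, edgeR's quasi-likelihood test). Ctsk (ENSMUSG00000028111), a collagenase best known from osteoclasts, was at 109.8, 90.1 and 105 TPM in siNC and at 304, 149 and 251 TPM in siPkm2. The groups overlapped for neither gene, and in Ctsk siPkm2 replicate 2 was nearer to siNC than the other 2. The log2 fold change of Ctsk was 1.25 without and 1.20 with the block (adjusted p = 0.142 and 0.013, same edgeR test). Of 5 osteoclast markers, Dcstamp was at 0 in all 6 libraries, Calcr and Ocstamp at 0.07 TPM or less and Oscar at 0.74 TPM or less. The 5 summed to 1.53 to 3.15 TPM in siNC and 0.32 to 0.95 TPM in siPkm2. Most of this was Mmp9, at 1.33, 2.34 and 1.96 TPM in siNC and 0.32, 0.79 and 0.33 TPM in siPkm2. Mmp9 fell with the block (log2 fold change -1.96, adjusted p = 0.0227, same edgeR test). The part of other cells in the level of Ctsk was not tested.

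Ctsd, the aspartic protease and the most abundant protease of the class, was at 731, 1211 and 947 TPM in siNC and 1270.0, 1392 and 1379 TPM in siPkm2. Its groups did not overlap, and it rose with the block by 0.55 on the log2 scale (adjusted p = 0.039, edgeR's quasi-likelihood test). Ctsb and Ctsl, cysteine proteases of broad action, were highest in replicate 2 of each group, and their groups overlapped. Ctsb was at 222, 497 and 318 TPM in siNC and 364, 605 and 357 TPM in siPkm2 (log2 fold change 0.37 with the block, adjusted p = 0.0476, same edgeR test). Ctsl was at 339, 749 and 323 TPM against 667, 811 and 496 TPM and just missed the threshold (0.55, adjusted p = 0.0571, same edgeR test). Ctsa, Ctsz and Tpp1, the protease deficient in a form of neuronal ceroid lipofuscinosis, rose with the block as well, by 0.39, 0.30 and 0.41 on the log2 scale. Lgmn, which cleaves after asparagine and processes other cathepsins, was at 78.0, 132 and 94.6 TPM against 79.7, 137 and 103 TPM (0.11 with the block, adjusted p = 0.349, same edgeR test). The remaining tested proteases, Ctsf, Ctsh, Ctso and Ctsw, did not pass, and Ctse, Ctsg, Ctsj, Ctsm, Ctss and Napsa were at 1.82 TPM or less and were not tested.

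The glycosidases split. Of the 19 tested genes 7 rose, 5 fell and 7 did not pass with the block, where 12.3% of all genes rose and 10.8% fell. The median log2 fold change of the 19 was 0.09 without and 0.10 with the block. Leaving out siNC replicate 1 gave a median of -0.07, leaving out siPkm2 replicate 2 gave -0.04 and leaving out siNC replicate 2 gave 0.27, so its sign rested on single libraries. Manba (ENSMUSG00000028164), beta-mannosidase, was at 6.18, 15.5 and 6.51 TPM in siNC and 21.0, 22.8 and 18.6 TPM in siPkm2. Gla (ENSMUSG00000031266), alpha-galactosidase A, the enzyme deficient in Fabry disease, was at 10.3, 24.4 and 8.65 TPM against 29.2, 30.6 and 24.8 TPM. In both genes siNC replicate 2 was more than 2-fold above the other siNC libraries yet below every siPkm2 library, so the groups did not overlap. With the block the log2 fold change was 1.37 for Manba and 1.15 for Gla (adjusted p = 0.0252 and 0.0283, edgeR's quasi-likelihood test), and in pair 2 the difference was 0.59 and 0.43.

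Gusb, beta-glucuronidase, had the lowest p of the class, at 38.4, 45.2 and 43.3 TPM in siNC and 70.3, 63.1 and 62.3 TPM in siPkm2 (log2 fold change 0.70, SE 0.13, adjusted p = 0.105 without and 0.0158 with the block, edgeR's quasi-likelihood test). Man2b1, an alpha-mannosidase, was at 23.4, 41.0 and 34.4 TPM against 51.7, 62.1 and 53.0 TPM. Neither gene's groups overlapped, and both rose with the block. Hexa and Fuca1, which act on ganglioside and fucosylated glycans, also rose with the block, by 0.73 and 0.43 on the log2 scale, while siNC replicate 2 lay above the lowest siPkm2 library in both, so that the groups overlapped. For Hexa, the most abundant glycosidase, the values were 85.0, 185 and 96.1 TPM in siNC and 169, 225 and 165 TPM in siPkm2.

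Hyal2, Hyal1, Idua and Gaa were among the glycosidases that fell with the block. Hyal2 (ENSMUSG00000010047), a hyaluronidase anchored to the cell surface, was at 38.6, 51.5 and 47.9 TPM in siNC and 17.8, 29.8 and 20.2 TPM in siPkm2. Its groups did not overlap, and its log2 fold change was -0.83 without and -0.86 with the block (adjusted p = 0.161 and 0.0175, edgeR's quasi-likelihood test). Idua, which removes iduronic acid from dermatan and heparan sulfate, was at 39.7, 40.1 and 48.5 TPM against 29.8, 28.7 and 36.4 TPM, again with no overlap. Hyal1, the lysosomal hyaluronidase, was at 10.3, 29.0 and 18.0 TPM against 7.41, 19.9 and 11.4 TPM. Gaa, acid alpha-glucosidase, which breaks down glycogen, was at 111, 228 and 149 TPM against 77.8, 146 and 89.9 TPM. In Hyal1 and Gaa replicate 2 was the highest of each group and the groups overlapped, while siPkm2 was lower in every pair, by log2 differences between -0.46 and -0.66. Glb1, lysosomal beta-galactosidase, was at 32.2, 94.3 and 46.6 TPM against 30.9, 71.9 and 36.1 TPM and did not pass (log2 fold change -0.23 with the block, adjusted p = 0.111, same edgeR test).

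**Figure D4:**
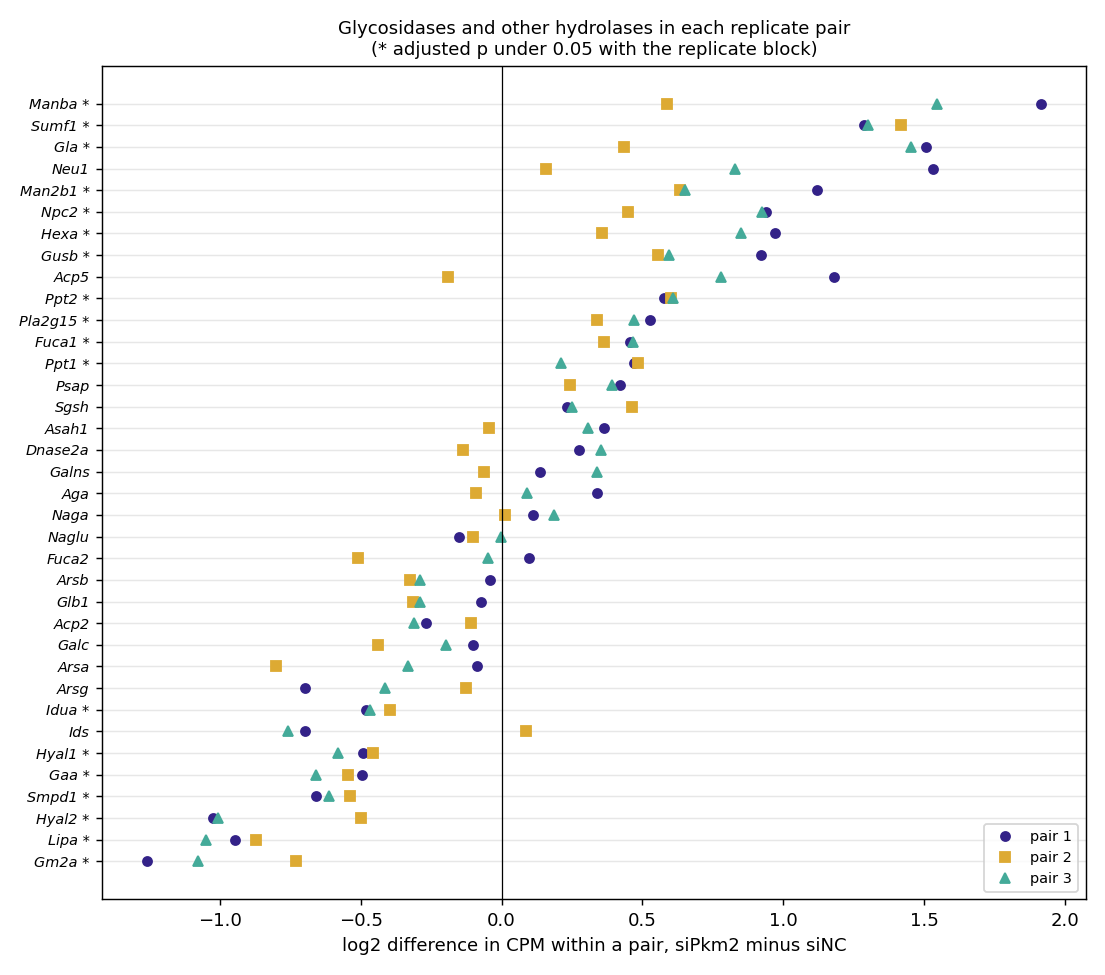
Log2 difference in CPM, siPkm2 minus siNC, within each replicate pair for 36 of the 39 tested glycosidases and other hydrolases, ordered by the fold change with the block; each symbol is 1 pair and an asterisk marks an adjusted p under 0.05 with the block. Sumf1 has 1.29, 1.42 and 1.30 in the 3 pairs and Lipa -0.95, -0.87 and -1.05, while for Manba and Gla pair 2 lies well to the left of pairs 1 and 3.

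Of the 20 other hydrolases and activators tested, 6 rose, 3 fell and 11 did not pass with the block, where 12.3% of all genes rose and 10.8% fell. The median log2 fold change of the 20 was 0.17 without and 0.19 with the block. Leaving out siPkm2 replicate 2 or siNC replicate 3 turned this median to -0.08 or -0.02. Sumf1 (ENSMUSG00000030101), the enzyme that activates all sulfatases by converting a cysteine in their active site, was at 42.2, 29.4 and 46.6 TPM in siNC and 107, 73.4 and 110.5 TPM in siPkm2. Its groups did not overlap, the 3 pairs were close (1.29, 1.42 and 1.30), and its log2 fold change was 1.33 without and 1.34 with the block (adjusted p = 0.124 and 0.00932, edgeR's quasi-likelihood test). The sulfatases Arsa, Arsb, Arsg, Galns, Ids and Sgsh did not pass, with log2 fold changes from -0.46 to 0.32 with the block. Arsb, which acts on dermatan and chondroitin sulfate, was at 29.4, 45.7 and 40.6 TPM against 28.9, 34.6 and 31.6 TPM.

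The 3 that fell serve the breakdown of lipids, as do some members of the class that rose. Lipa (ENSMUSG00000024781), lysosomal acid lipase, was at 22.3, 39.3 and 31.1 TPM in siNC and 11.5, 21.1 and 14.4 TPM in siPkm2, a log2 fold change of -0.96 without and -0.97 with the block (adjusted p = 0.149 and 0.0109, edgeR's quasi-likelihood test). Smpd1, acid sphingomyelinase, was at 44.2, 71.1 and 54.8 TPM against 28.2, 46.5 and 34.0 TPM. Gm2a (ENSMUSG00000000594), an activator protein of ganglioside breakdown, was at 11.9, 29.1 and 20.2 TPM against 4.91, 16.6 and 9.0 TPM. The groups of Gm2a overlapped, and its log2 fold change with the block was -1.03 (adjusted p = 0.0131, same edgeR test). Ppt1 and Ppt2, palmitoyl-protein thioesterases, and the phospholipase Pla2g15 rose with the block, by 0.39, 0.60 and 0.45 on the log2 scale. Npc2, which hands cholesterol to Npc1, rose with the block by 0.77 (adjusted p = 0.0193, same edgeR test), at 113, 537 and 133 TPM in siNC and 217, 692 and 242 TPM in siPkm2, with replicate 2 highest in each group. Psap, the saposin precursor and the most abundant of the class, was at 583, 680.3 and 763 TPM against 788, 766 and 953 TPM and did not pass (0.35, adjusted p = 0.0556, same edgeR test), nor did Asah1, acid ceramidase (0.21, adjusted p = 0.215, same edgeR test).

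Among the membrane proteins 7 of 23 tested genes rose and 0 fell with the block, where 12.3% of all genes rose and 10.8% fell. The median log2 fold change of the 23 was 0.17 without and 0.30 with the block. Lamp1 (ENSMUSG00000031447) and Lamp2, the major glycoproteins of the lysosomal membrane, both rose with the block. Lamp1 was at 449, 456 and 464 TPM in siNC and 782, 587 and 703 TPM in siPkm2 (log2 fold change 0.63 with the block, adjusted p = 0.019, edgeR's quasi-likelihood test). Lamp2 was at 235, 315 and 255 TPM against 415, 424 and 397 TPM (0.52, adjusted p = 0.0232, same edgeR test). Neither gene's groups overlapped. Mcoln1, the calcium channel TRPML1, was at 57.6, 55.7 and 64.6 TPM in siNC and 77.9, 72.5 and 85.1 TPM in siPkm2 and rose by 0.40 with the block (adjusted p = 0.026, same edgeR test). The sialic acid and cystine exporters Slc17a5 and Ctns, the metal transporter Slc11a2 and Abca2 were the other 4 that rose.

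The most abundant membrane protein, the tetraspanin Cd63, was at 874, 977 and 865 TPM against 1089, 914 and 998 TPM, with overlapping groups (log2 fold change 0.17 with the block, adjusted p = 0.276, edgeR's quasi-likelihood test). Npc1, the cholesterol transporter, and Scarb2, a sorting receptor of the lysosomal membrane, did not pass either, at log2 fold changes of 0.16 and 0.00 with the block (adjusted p = 0.463 and 0.984, same edgeR test). Entpd4 and Entpd4b are near-identical copies, so how counts were divided between them is uncertain, and neither passed. Cd68 (ENSMUSG00000018774), a LAMP family member used as a macrophage marker, was at 6.31, 92.8 and 2.93 TPM in siNC and 17.6, 53.4 and 6.33 TPM in siPkm2. It went up in pairs 1 and 3 and down in pair 2 (1.34, -0.72 and 0.99), and its log2 fold change was -0.32 without and 0.48 with the block (adjusted p = 0.927 and 0.469, same edgeR test).

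Sorting and coat proteins had 12 of 29 tested genes up and 1 down with the block, where 12.3% of all genes rose and 10.8% fell. The median log2 fold change of the 29 was 0.35 without and 0.37 with the block. Nagpa (ENSMUSG00000023143), the uncovering enzyme that completes the mannose 6-phosphate tag, was at 10.9, 11.8 and 16.5 TPM in siNC and 29.2, 27.5 and 32.7 TPM in siPkm2. Gnptg, a subunit of the phosphotransferase that begins the tag, was at 31.8, 16.7 and 39.6 TPM against 48.5, 37.8 and 58.5 TPM. Nagpa's groups did not overlap, whereas those of Gnptg did, and both rose with the block (log2 fold changes of 1.21 and 0.68, adjusted p = 0.0101 and 0.0213, edgeR's quasi-likelihood test). Gnptab, which encodes the catalytic chains of that phosphotransferase, did not pass, at 11.6, 13.3 and 14.0 TPM against 15.3, 14.3 and 13.8 TPM (0.16, adjusted p = 0.251, same edgeR test). Both receptors of the tag rose with the block, Igf2r by 0.45 and M6pr by 0.56 on the log2 scale, although their groups overlapped. Igf2r was at 115, 86.3 and 140.3 TPM in siNC and 156, 123 and 167 TPM in siPkm2, lowest in replicate 2 of each group, whereas M6pr was highest there, at 90.0, 156 and 91.8 TPM and 147, 186 and 139 TPM. Sort1, sortilin, which sorts some hydrolases without the tag, fell with the block, from 15.6, 13.0 and 18.6 TPM to 11.3, 9.29 and 11.8 TPM (-0.49, adjusted p = 0.0178, same edgeR test).

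The clathrin chains differed from each other. Cltb (ENSMUSG00000047547), light chain B, was at 27.4, 38.8 and 27.9 TPM in siNC and 63.7, 78.5 and 55.4 TPM in siPkm2, with a log2 fold change of 1.17 (SE 0.19, adjusted p = 0.0942 without and 0.00942 with the block, edgeR's quasi-likelihood test). Its 3 pairs were close (1.25, 1.10 and 1.16). Clta, light chain A, was at 349, 305 and 347 TPM against 548, 368 and 506 TPM and rose by 0.52 with the block (adjusted p = 0.0231, same edgeR test). Cltc, the heavy chain, was at 126, 142 and 132 TPM against 126, 94.2 and 118 TPM and did not pass (-0.14, adjusted p = 0.435, same edgeR test). Of the adaptor complexes, AP-1 had 4 genes that rose with the block (Ap1b1, Ap1g1, Ap1m1 and Ap1s1) and AP-3 had 2 (Ap3d1 and Ap3s1), while no tested AP-4 or Gga gene passed.

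Some members differed more between replicate numbers than between siRNAs. Cd68, Acp5, Npc2, Tcirg1, Glb1, Ctsz and Hyal1 were 1.01 to 2.89 log2 units higher in the libraries of number 2 than in the others. Acp5, the tartrate-resistant acid phosphatase, was at 1.34, 15.2 and 2.48 TPM in siNC and 3.93, 12.7 and 4.62 TPM in siPkm2, so that siNC replicate 2 was the highest of the 6. For all 7 genes replicate 2 was the highest library of each group. Of 12 macrophage markers, Ptprc, Adgre1 and Itgam were at 0.10 TPM or less in every library, and the 12 summed to 5.59 to 25.8 TPM in siNC and 9.57 to 34.9 TPM in siPkm2, highest in replicate 2 of each group. Cd14 was at 1.09, 18.9 and 1.40 TPM in siNC and 5.77, 29.0 and 4.01 TPM in siPkm2, and Lyz2 at 3.46, 5.09 and 5.44 TPM against 2.74, 4.52 and 5.12 TPM. The other 7 markers were at 1.27 TPM or less, and the part of other cells in the levels of Cd68 and Acp5 was not tested. Over the 124 tested members, a median of 40.2% of the variation among libraries lay between the siRNAs and 46.2% between replicate numbers. The number held the larger share in 66 of them (53.2%, against 65.5% of all genes). The number has more levels than the siRNA, so its share tends to be the larger even where neither has an effect.

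**Figure D5:**
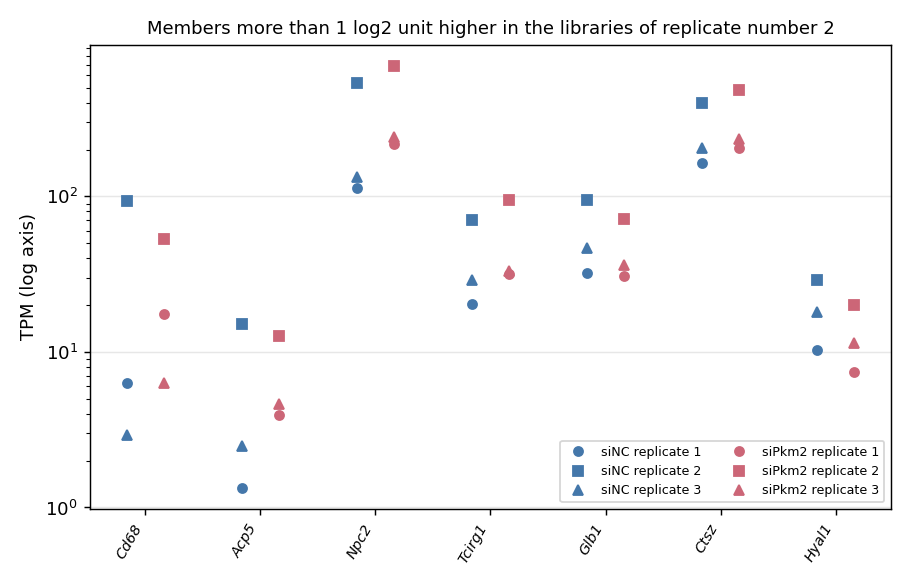
TPM on a log axis, in each of the 6 libraries, of the 7 members that were more than 1 log2 unit higher in replicate number 2 than in numbers 1 and 3; colour gives the group and symbol shape the replicate number. The square symbols of replicate 2 lie above the other libraries of the same group for every gene, with Cd68 at 92.8 and 53.4 TPM.

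Genes that regulate lysosomes were compared as a list of 24, of which 23 were tested. With the block 5 of the 23 rose and 1 fell, where 12.3% of all genes rose and 10.8% fell. The median log2 fold change of the list was 0.09. Those that rose were Lamtor1, Lamtor3, Lamtor5, Rragc and Flcn, of complexes that tether the kinase mTORC1 to the lysosome or control it there, at log2 fold changes of 0.83, 0.58, 0.44, 0.58 and 0.81. Other genes of these complexes, Lamtor2, Lamtor4, Rraga, Rragb, Rragd, Fnip1 and Fnip2, did not pass, at -0.27, 0.09, -0.13, -0.72, 1.31, -0.14 and 0.98. Lamtor2 was at 174, 171 and 186 TPM in siNC and 143, 164 and 132 TPM in siPkm2, lower in all 3 pairs with no overlap, and Rragb was also lower in all 3 pairs. Lamtor1, the membrane anchor, was at 90.7, 64.7 and 105 TPM in siNC and 169, 116 and 174 TPM in siPkm2, with no overlap. The gene that fell was Zkscan3, known as a repressor of autophagy and lysosome genes (-0.37 with the block, adjusted p = 0.0341, edgeR's quasi-likelihood test). Tfeb, the transcription factor best known for switching on lysosome genes, was at 10.9, 11.6 and 9.64 TPM in siNC and 8.24, 10.9 and 8.96 TPM in siPkm2, with overlapping groups. Neither Tfeb nor its relatives Tfe3 and Mitf passed with the block (-0.12, 0.29 and 0.21, adjusted p = 0.521, 0.0757 and 0.379, same edgeR test). Of 20 tested genes for lysosome positioning and fusion, 7 rose and 1 fell with the block, where 12.3% of all genes rose and 10.8% fell. Rab7, Vps11, Vps18 and Vps33a were among those that rose, and Snapin was the one that fell. The other Vps genes of the list, Vps16, Vps39 and Vps41, did not pass, at log2 fold changes of -0.02, 0.22 and 0.22 with the block.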

How the data were processed

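RNA of 6 libraries of primary mouse chondrocytes (siNC, n = 3; siPkm2, n = 3) was sequenced. The authors deposited estimated counts per gene, not normalized, and TPM values scaled within each library, in a table that also holds their fold changes, log2 fold changes, p-values and adjusted p-values, none of which were used. The submitters' processing notes list mm9 and edgeR; the aligner, counter and annotation are not given in the sources used here. Estimated counts were rounded and fitted for the whole table with edgeR 4.0.16 in R 4.3.3 (TMM, filterByExpr, quasi-likelihood test, Benjamini-Hochberg over 15269 genes), and the members were read from that fit. CPM were scaled by TMM, and differences within pairs used log2(CPM + 0.5). TPM were used for levels and, as log2(TPM + 1) and log2(TPM + 0.1), with limma 3.58.1. DESeq2 1.42.0 was another alternative. The threshold was an adjusted p of 0.05. The fit was also run on simulated counts. These held no difference between replicate numbers, so they did not test how the block handles such differences.

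The replicate numbers pair the libraries: deviations from the group means correlated at 0.66, 0.76 and 0.65 within numbers 1, 2 and 3 and at most 0.16 between numbers, a pairing that comes from the data and the shared numbers in the titles. Between 53.6% and 73.7% of genes differed beyond sampling noise between replicates of a group, so none was a duplicate. Named genes were landmarks of each role, the 3 lowest p-values and the highest mean TPM per role, members past a fold of 2 with either fit, and V-ATPase isoforms; the others were named after their values were seen. Counts and medians cover every tested member, and 3 members are not reported here by name. The members and lists were chosen with earlier results of these data known. Promoter windows came from RefSeq on GRCm38.p6, and no other coordinates are printed because the builds differ.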

Additional observations from a re-analysis of the deposited data

How the results depend on the processing

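The replicate block decided the calls. The libraries are paired by their number, and with the block 62 members passed an adjusted p of 0.05 and 8 also a fold of 2, against 0 and 0 without it. DESeq2 gave 16 and 6 (12.9% and 4.84% of members tested, against 5.38% and 2.79% of all genes), and the block with pair 2 left out gave 83 and 16 (66.9% and 12.9%, against 39.1% and 10.8% of all genes). Leaving out single libraries without the block gave 0 to 3 for both counts, the 3 without siNC replicate 2 being Cltb, Gla and Manba. RLE or upper-quartile factors, other filters, limma on TPM, and the block with pair 1 or pair 3 left out gave 0 members. Each fit with a pair left out rests on 4 libraries for 3 coefficients, the fit without pair 2 included.

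With single libraries left out, the median log2 fold change ran from 0.41 to 0.52 for V-ATPase subunits, from -0.072 to 0.27 for glycosidases, from 0.14 to 0.36 for membrane proteins and from -0.082 to 0.33 for the other hydrolases. For membrane proteins it was 0.37 with the block and pair 2 left out. Of the 6 class medians, these 4 moved by more than their spread between pairs under 1 or more settings, and those of glycosidases and other hydrolases changed sign.

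Named members whose log2 fold change changed sign were those with small or number-dependent changes, and the cause was not tested. With single libraries left out, Atp6v0a1 ran from -0.020 to 0.13, Atp6v0a4 from -0.42 to 0.24, Atp6v0d1 from -0.27 to 0.21, Atp6v1g2 from -1.01 to 0.62, Cd68 from -1.37 to 2.41, Cltc from -0.25 to 0.026, Glb1 from -0.68 to 0.24, Lgmn from -0.062 to 0.31, Npc2 from -0.062 to 1.63, Scarb2 from -0.084 to 0.091 and Tcirg1 from -0.079 to 1.24. The negative values of Lgmn, Npc2 and Tcirg1 and the positive value of Cltc came without siPkm2 replicate 2, and the positive value of Glb1 without siNC replicate 2. With the block Atp6v0d1 was at 0.016 and Cd68 at 0.48. With the block and pair 1 left out Atp6v0a1 was at -0.083 and Atp6v0a4 at 0.21. With the block and pair 2 left out Cd68 was at 1.31 and Scarb2 at 0.12. With the block and pair 3 left out Atp6v0a1 was at -0.0058, Atp6v0d1 at 0.13, Atp6v1g2 at 0.024 and Cd68 at 0.26. On TPM with limma, Atp6v0a1 was at -0.063 with a pseudocount of 1 and -0.064 with 0.1, Cd68 at 0.49 with 1 and 0.58 with 0.1, and Atp6v1g2 at 0.047 with 0.1. Upper-quartile factors gave Atp6v0a1 -0.031. Scarb2 was at 0.0090 with DESeq2, 3.9e-05 with RLE factors and 0.00017 with no filter.

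Counts of Atp6v1g2 and Ctsw were low, 26 members were not tested, 11 of them with no count in any library, and n = 3 limits every test.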

Other observations

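Counts and TPM gave unlike fold changes for some members. For 13 of the 124 tested members the log2 fold change from counts differed by more than 0.15 from that on log2(TPM + 0.1). Hyal2 was at -0.83 from counts and -1.05 on TPM, Ap3d1 at 0.61 and 0.41, Atp6v1b2 at 0.72 and 0.55, Cln3 at 0.50 and 0.31 and Laptm5 at 0.40 and 0.06. The gaps were widest for Cd68, at -0.32 and 0.58, and Acp5, at 0.23 and 0.70, which differed most between replicate numbers.

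Of the 20 tested genes of lysosome positioning and fusion, 13 had a positive and 7 a negative log2 fold change without the block, and subunits of the same complexes lay on both sides. Snapin, a subunit of the BORC and BLOC-1 complexes, was at 70.5, 65.0 and 70.9 TPM in siNC and 42.2, 43.1 and 40.7 TPM in siPkm2, with no overlap (log2 fold change -0.70 with the replicate block, adjusted p = 0.0138, edgeR's quasi-likelihood test). Bloc1s2, which belongs to the same complexes, was at 49.96, 91.4 and 48.2 TPM against 98.3, 128 and 95.9 TPM and rose with the block (0.85, adjusted p = 0.0149, same edgeR test). Borcs7, Bloc1s1, Borcs5 and Kxd1, also of these complexes, did not pass, at -0.43, -0.24, -0.22 and -0.24 with the block, and neither did Borcs6 and Borcs8, at 0.18 and 0.18.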
